A study of Homo sapiens with 4 samples.

Results

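The G2/M and mitosis genes were 53 genes, most of which are known for transcripts that accumulate from late S phase to cell division, out of 32991 genes listed in all 4 count tables. They were taken by name from the G2/M list that Seurat uses for cell-cycle scoring, with CCNB1, PLK1 and ASPM added and a few entries of that list set aside. The rule uses names only, although the list was put together with earlier results of these data known. All 53 had UMIs in every library, and the smallest count of any member was 44 UMIs (TTK in RVT). Of the 53, 44 reached a mean of at least 10 UMIs per 1000000 UMIs (CPM) over the 4 libraries, the level asked of a gene for the background counts below. BUB1, KIF11, TTK, CDC25C, CDCA2, ECT2, PSRC1, NEK2 and GAS2L3 did not, and they are still included in every count over the 53 members.

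The cells were A375, a human BRAF-mutant melanoma line, grown in RPMI medium with fetal calf serum. S cells were untreated. RV cells had been kept under vemurafenib, a BRAF inhibitor, RVC cells under vemurafenib with cobimetinib and RVT cells under vemurafenib with trametinib, both of which inhibit MEK1/2. The study describes RV, RVC and RVT as cells made resistant to these inhibitors. Exposure lasted 10 to 14 days at inhibitor concentrations below the IC50, and the inhibitors were withdrawn 24 h before about 10000 cells per condition were loaded on a droplet system that counts transcript 3′ ends. Each condition was 1 culture and 1 library, so a difference between conditions and a difference between cultures cannot be told apart, no test between conditions was possible, and all intervals given are 95% intervals for counting error only. After filtering, 4177 to 8443 cells per library remained with 25406351 to 58470570 UMIs in total and a median of 2869 (RVT) to 11553 (RV) UMIs per cell. Barcodes removed for over 20% mitochondrial UMIs numbered 2 (S), 1 (RV), 478 (RVC) and 580 (RVT), and those under 500 genes 0, 0, 903 and 1084. The median mitochondrial share of the kept cells was 3.16% (S), 3.06% (RV), 3.58% (RVC) and 5.78% (RVT), and the part of these differences in the RVC and RVT results was not tested. S and RV were deposited with 1 gene annotation and RVC and RVT with another and at lower depth, and these differences cannot be told apart from the combination treatments in RVC over S and RVT over S. Of 8 melanocyte lineage markers, SOX10 had 86.7 CPM (S), 40.2 (RV), 0 UMIs (RVC) and 19.4 CPM (RVT). S100B and DCT were also at 0 in RVC, TYR was at 0 in all 4 libraries, and the summed list reached 195 CPM (S), 81.9 (RV), 8.42 (RVC) and 61.4 (RVT). Apart from MITF, the melanocyte markers were therefore nearly absent from the RVC library. MITF had 9.73 (S), 20.2 (RV), 7.94 (RVC) and 40.7 (RVT) CPM, so unlike SOX10 and the summed list it was above S in RV and RVT. Leukocyte and endothelial lists stayed at or below 1.31 CPM in each library, with PTPRC and CD3E at 0, while a list of 4 fibroblast genes had 0.513 CPM (S), 0.745 (RV), 39.7 (RVC) and 28.1 (RVT); the part of these shifts in the results below was not tested.

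Entry into mitosis is driven by cyclin-dependent kinase 1 (CDK1) bound to B-type cyclins, and is assisted by the Polo-like and Aurora kinases. Condensin and topoisomerase II compact and untangle chromosomes, kinetochores couple them to spindle microtubules, and the anaphase-promoting complex with its activator CDC20 marks cyclin B and securin for destruction once all chromosomes are attached. Most genes of these machines are held down in resting and G1 cells by the DREAM complex and switched on in G2 by B-MYB and FOXM1, through promoter elements known as the cell cycle genes homology region (CHR, TTTGAA or TTTAAA) and the CCAAT box. Because cycling cells express them together and resting cells hardly at all, their joint level in a cell is commonly used as a score of the G2/M stage, and in a bulk sum fewer cells in G2/M and less RNA per cell cannot be told apart.

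Promoters of 6 members are shown, picked by hand with the treatment differences described below known. NCAPD2 and CKS2 had the highest ratios in RVC over S and CDC20 and PLK1 the lowest, while the B-type cyclins CCNB1 and CCNB2 lay between them. Each sequence is from RefSeq (build GRCh38.p14), lies on the plus strand and runs from 150 bases before the annotated transcription start to 30 bases after it, with CCAAT as well as TTTGAA and TTTAAA on either strand in capitals, so that ATTGG and TTCAAA are the minus-strand forms.
CCNB1 (chr5:69167000-69167179): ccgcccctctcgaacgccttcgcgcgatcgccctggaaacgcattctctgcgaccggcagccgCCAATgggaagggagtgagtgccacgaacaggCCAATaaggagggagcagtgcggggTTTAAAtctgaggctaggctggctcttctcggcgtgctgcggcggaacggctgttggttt
CCNB2 (chr15:59104996-59105175): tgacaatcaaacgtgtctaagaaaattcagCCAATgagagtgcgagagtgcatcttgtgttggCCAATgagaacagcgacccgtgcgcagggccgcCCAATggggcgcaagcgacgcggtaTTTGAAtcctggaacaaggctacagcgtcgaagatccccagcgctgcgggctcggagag
CKS2 (chr9:89311045-89311224): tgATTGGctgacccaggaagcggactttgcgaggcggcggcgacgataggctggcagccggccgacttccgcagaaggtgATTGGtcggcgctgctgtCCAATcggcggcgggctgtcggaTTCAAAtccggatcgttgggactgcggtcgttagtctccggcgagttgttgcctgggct
NCAPD2 (chr12:6493952-6494131): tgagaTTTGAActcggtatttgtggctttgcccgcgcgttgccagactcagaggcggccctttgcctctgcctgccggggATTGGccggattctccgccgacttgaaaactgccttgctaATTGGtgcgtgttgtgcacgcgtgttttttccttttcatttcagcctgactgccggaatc
CDC20 (chr1:43358831-43359010): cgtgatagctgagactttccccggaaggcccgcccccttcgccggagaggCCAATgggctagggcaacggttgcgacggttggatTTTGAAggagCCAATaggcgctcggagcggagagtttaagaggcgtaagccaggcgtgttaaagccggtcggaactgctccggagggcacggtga
PLK1 (chr16:23678739-23678918): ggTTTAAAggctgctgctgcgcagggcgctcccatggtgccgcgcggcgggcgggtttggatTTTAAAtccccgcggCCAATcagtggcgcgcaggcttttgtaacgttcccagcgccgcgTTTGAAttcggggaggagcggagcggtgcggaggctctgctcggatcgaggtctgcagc
In GENCODE 29 the genes themselves are CCNB1 (ENSG00000134057, chr5:69167010-69178245), CCNB2 (ENSG00000157456, chr15:59105078-59125045), CKS2 (ENSG00000123975, chr9:89311198-89316703), NCAPD2 (ENSG00000010292, chr12:6493356-6531955), CDC20 (ENSG00000117399, chr1:43358955-43363203) and PLK1 (ENSG00000166851, chr16:23677656-23690367), all on the plus strand. The NCAPD2 and PLK1 stretches lie wholly within the annotated gene spans, downstream of the span's first base, since the RefSeq start used here differs from the start of the GENCODE span. The CCNB1 stretch also lies within its span, apart from the bases before 69167010. Distances below are to the RefSeq start. CCNB1 had CCAAT at 87 and 55 bases and TTTAAA at 30 bases before the start. A similar arrangement was present in CCNB2, with CCAAT at 120, 87 and 54 bases and TTTGAA at 29 bases before the start, and in PLK1, with CCAAT at 73 bases and TTTGAA at 29 bases. CKS2 also had TTTGAA at 29 bases before the start, on the minus strand, while in CDC20 the nearest TTTGAA was at 65 bases and in NCAPD2 at 145 bases.

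RefSeq promoters of 300 bases (250 before to 50 after the start) were matched for 45 of the 53 members, and not for HMGB2, UBE2C, BIRC5, TPX2, TTK, CDCA2, AURKA and ANP32E. CCAAT on either strand was present in 33 of the 45 (73.3%), against 35.7% of 27305 promoters of the same length. TTTGAA or TTTAAA was present in 37 (82.2%), against 24.3% of all promoters, and both kinds of element together in 28 (62.2%), against 9.49%. Both elements were found in 19 of 29 matched members that were at least 2-fold above S in RVC, in 6 of 12 that were above S by less and in 3 of 4 that were below S, groups too small to compare. A match is a string of letters and not evidence of binding.

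The summed level of the 53 genes was 1733 CPM (S, 1722 to 1744), 2220 (RV, 2207 to 2233), 4711 (RVC, 4688 to 4735) and 1437 (RVT, 1422 to 1452). RVC was thus 2.72-fold above S and RVT 3.28-fold below RVC, while RV was 1.28-fold above S. The difference between RVT and S was small, with a log2 ratio of -0.27 that came to -0.015 when cells with at least 1000 genes were used and to -0.79 with TMM scaling. The 5 members with the most UMIs gave 40.1% of the sum in S and 45.5% in RVC, so the members were also counted singly.

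**Figure D1:**
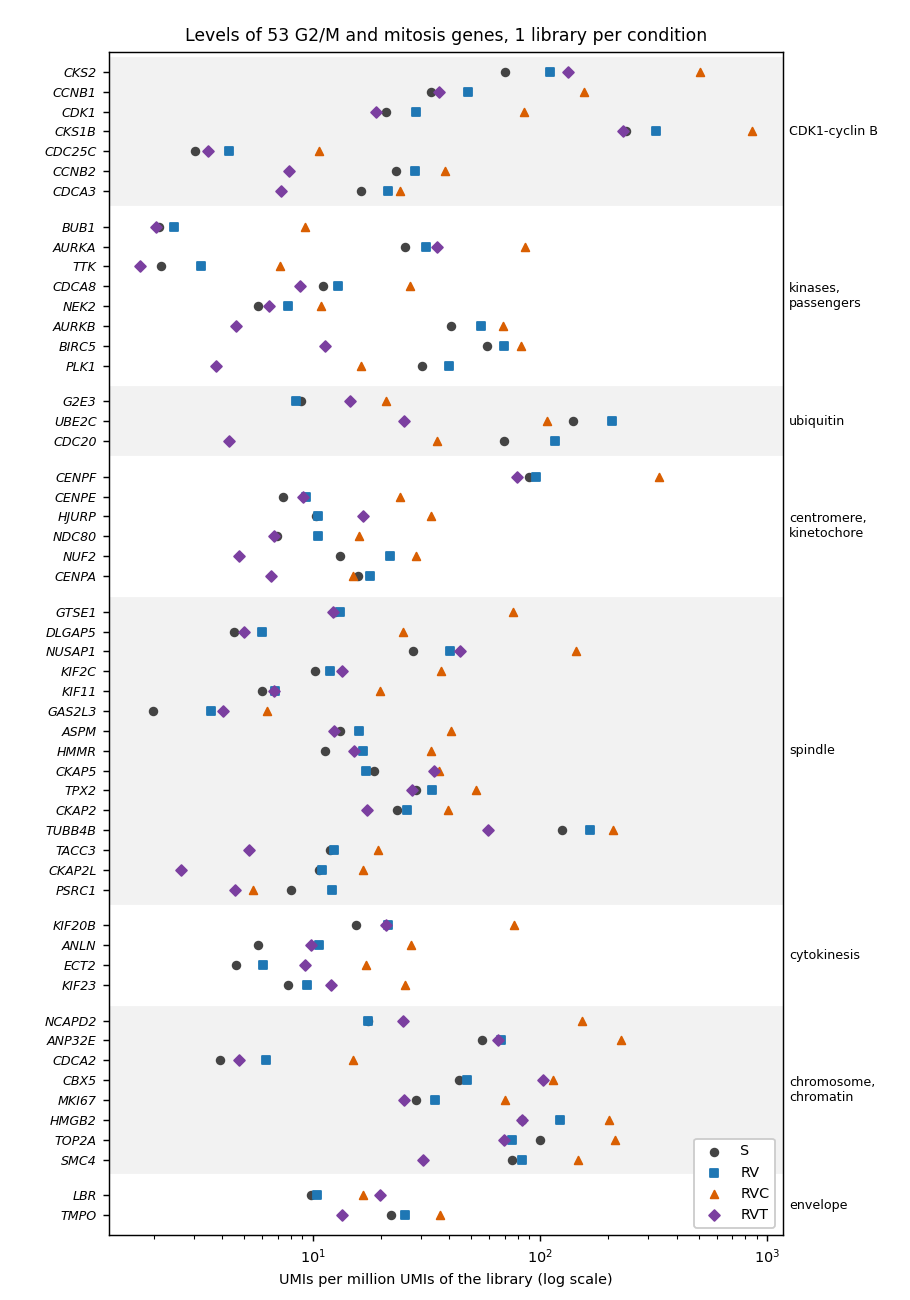
Level of each of the 53 genes (rows, grouped by role) in the S, RV, RVC and RVT libraries, in UMIs per 1000000 UMIs of the library on a log axis, 1 point per library. RVC points lie farthest to the right for most genes, while RVT points lie farthest to the left for CDC20 (4.29), PLK1 (3.74) and AURKB (4.61).

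In RV over S the members moved little and mostly the same way. Of the 53, 49 were above S and 4 below, against 53.2% of 6510 background genes above, and the counting intervals lay wholly above 0 on the log2 scale for 42 members and wholly below 0 for 1 (TOP2A), where 37.3% and 31.6% of the background genes outside the list had such intervals. No member was 2-fold above, where 1.87% of background genes were, and none 2-fold below, where 1.21% were. The median log2 ratio was 0.30, beside 0.02 for the background genes. Among the 44 members over 10 CPM, ANLN (0.90), CDC20 (0.74), NUF2 (0.74), CKS2 (0.66) and NDC80 (0.59) had the highest log2 ratios, and TOP2A (-0.42), CKAP5 (-0.12), G2E3 (-0.08), NCAPD2 (-0.01) and HJURP (0.03) the lowest, with the directions of NCAPD2 and HJURP depending on the setting. TOP2A, topoisomerase II alpha, was alone in having an interval wholly below 0 (-0.48 to -0.36).

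In RVC over S the levels of most members were higher and those of a few lower. Counted over all members, 48 were above S and 5 below, against 54.6% of background genes above. At least 2-fold above were 34 (64.2%), against 22.4% of background genes, and 11 were at least 4-fold above, against 4.18%. No member was at least 2-fold below, where 23.3% of background genes were. The median log2 ratio was 1.37, beside 0.16 for the background genes. The range was wide, from -0.97 to 3.13 with a standard deviation of 0.88 across members, so single members departed from the median in both directions. CDC20, PLK1, UBE2C and PSRC1 stayed below S under each of 9 settings. TMM scaling lowered all RVC over S log2 ratios by 0.21, and library sizes without ribosomal protein and mitochondrial genes lowered them by 0.19. Neither setting could therefore turn a ratio that was already below 0.

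In RVT over S the members were split. Above S were 24 and below S 29, against 55.5% of background genes above. At least 2-fold above were 4, against 28.4% of background genes, and 13 were at least 2-fold below (24.5%), against 24.3%. At least 4-fold below were 6 members (CDC20, AURKB, PLK1, UBE2C, BIRC5 and CKAP2L), against 11.2% of background genes, so that both shares below S were near the background. The median log2 ratio was -0.04, beside 0.22 for the background genes, and the standard deviation across members was 1.16. TMM scaling lowered all RVT over S log2 ratios by 0.52 and turned the count to 11 above and 42 below, while a minimum of 1000 genes per cell gave 35 above and 18 below. Over 9 settings 18 members were below S in each, 9 were above S in each (NUSAP1, CKS2, HJURP, ECT2, ANLN, LBR, CKAP5, GAS2L3 and CBX5), and the direction of the other 26 differed between settings. Library sizes without ribosomal protein and mitochondrial genes shifted all RVT over S log2 ratios by -0.08. Neither this setting nor TMM scaling could therefore turn a member that was already below S. Background shares under these settings were not computed, so the counts are not read against all genes.

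RVT over RVC compares both combinations within 1 annotation and at closer depth, with a median of 3955 (RVC) and 2869 (RVT) UMIs per cell. LBR alone was above RVC (log2 ratio 0.25, which was negative with TMM scaling), and 52 members were below, against 43.2% of background genes. At least 2-fold below were 43 (81.1%), against 11.7% of background genes. The median log2 ratio was -1.68, beside 0.16 for the background genes. Among the 44 members over 10 CPM, AURKB (-3.90), CDC20 (-3.04), BIRC5 (-2.86), CKAP2L (-2.65) and GTSE1 (-2.63) were lowest, and after LBR the highest were CKAP5 (-0.07), CBX5 (-0.14), G2E3 (-0.52) and TPX2 (-0.93).

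**Figure D2:**
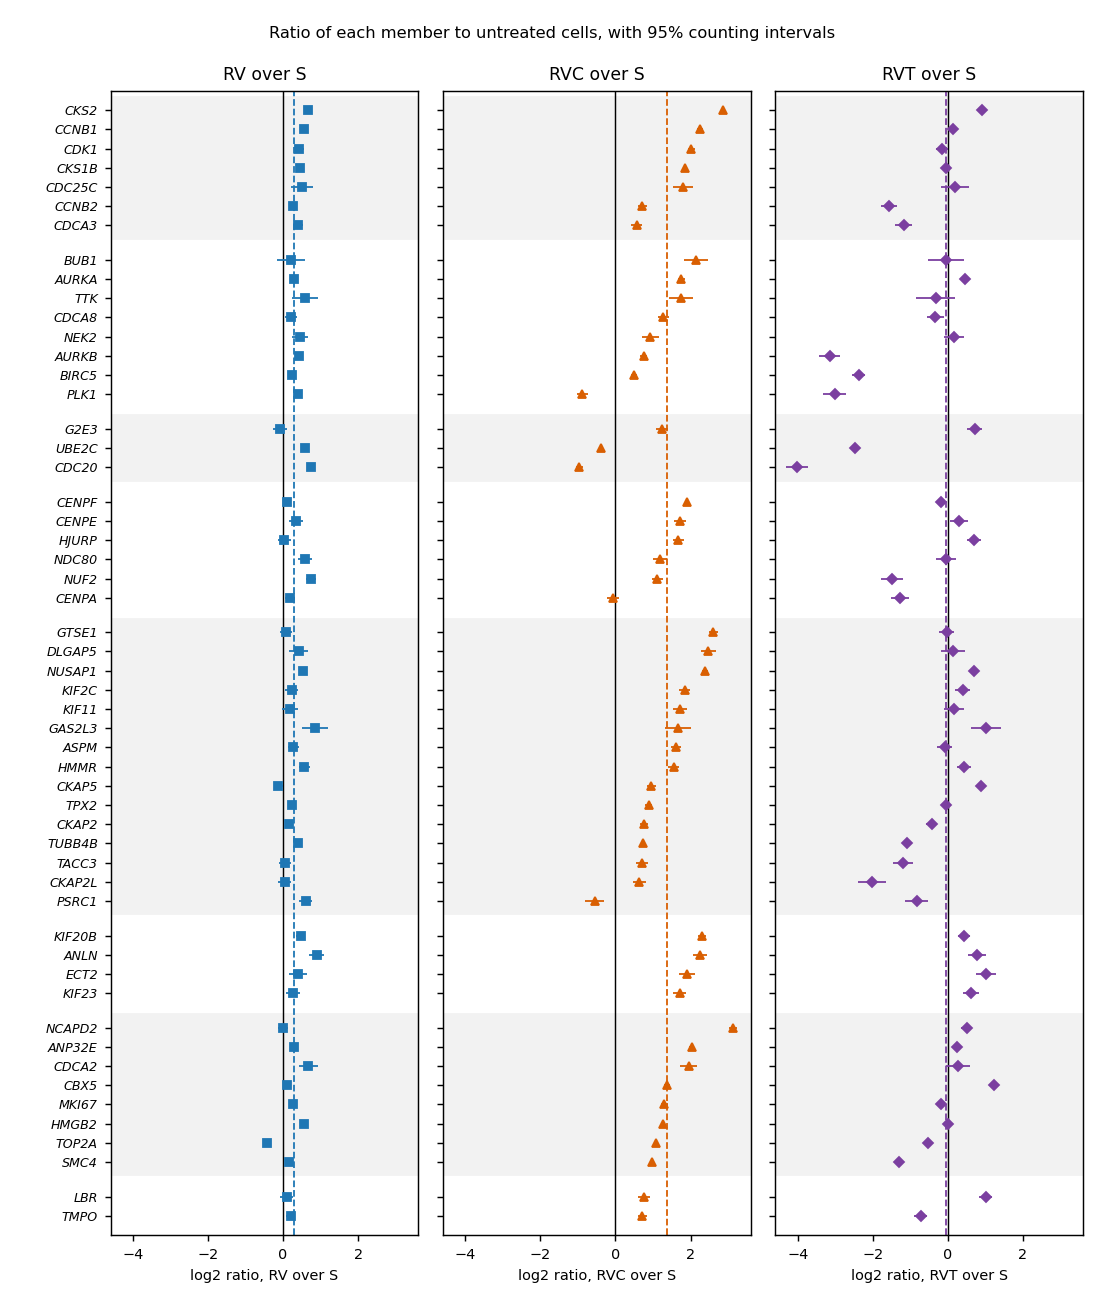
Log2 ratio of each member to the untreated library S, in RV, RVC and RVT, with 95% counting intervals as bars, a solid line at no difference and a dashed line at the median of the 53 members. The members lie close to their median of 0.30 in RV, mostly right of 0 in RVC, and spread from -4.01 to 1.23 in RVT.

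Cyclin B, CDK1 and their partners were the role with the highest summed level in RVC. Their 7 members reached 407 (S), 568 (RV), 1684 (RVC) and 439 (RVT) CPM. CCNB1, the main mitotic cyclin, had 33.01 (S), 48.3 (RV), 157 (RVC) and 36.1 (RVT) CPM, a log2 ratio of 2.25 (2.17 to 2.32) in RVC over S and of 0.13 (0.01 to 0.24) in RVT over S. CCNB2, the other mitotic B-type cyclin in the list, behaved differently, with 23.3 (S), 28.1 (RV), 38.3 (RVC) and 7.83 (RVT) CPM. RVT was therefore 1.09-fold above S for CCNB1, a direction that differed between settings, and 2.97-fold below S for CCNB2 (-1.79 to -1.36 on the log2 scale). Both promoters shown above carry CCAAT and a CHR element, and the part of these elements in the levels was not tested.

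CDK1 itself had 20.98 (S), 28.4 (RV), 85.4 (RVC) and 18.9 (RVT) CPM, so its level in RVC was 4.07-fold that in S. The small CDK-binding subunits CKS1B and CKS2, needed for the kinase to act on many of its substrates, were among the members with the most UMIs. CKS1B had 239.7 (S), 326 (RV), 859 (RVC) and 232 (RVT) CPM. CKS2 had 70.4 (S), 111 (RV), 509.8 (RVC) and 133 (RVT) CPM, the second highest ratio of the 44 members over 10 CPM in RVC over S (7.24-fold), and it was above S in RVT in all 9 settings (1.90-fold). CDC25C, a phosphatase that activates CDK1, had 3.03 (S), 4.26 (RV), 10.6 (RVC) and 3.46 (RVT) CPM, and CDCA3, a trigger of mitotic entry, had 16.4 (S), 21.5 (RV), 24.2 (RVC) and 7.24 (RVT) CPM, which in RVT was 2.26-fold below S.

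The mitotic kinases and chromosomal passengers did not move as a block. Their 8 members summed to 176 (S), 222 (RV), 307 (RVC) and 73.997 (RVT) CPM. AURKA, the Aurora kinase of centrosomes and spindle poles, had 25.5 (S), 31.4 (RV), 85.9 (RVC) and 35.3 (RVT) CPM. AURKB, the Aurora kinase of the chromosomal passenger complex, had 40.8 (S), 54.9 (RV), 68.5 (RVC) and 4.61 (RVT) CPM. AURKB in RVT was thus 8.85-fold below S and 14.9-fold below RVC, with UMI counts of 2383 in S and 117 in RVT, while AURKA in RVT was 1.39-fold that in S, a direction that differed between settings.

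BIRC5 (survivin), which docks the passenger complex on centromeres, showed the same order as AURKB with 58.6 (S), 69.6 (RV), 82.3 (RVC) and 11.3 (RVT) CPM. CDCA8 (borealin), also of that complex, showed a smaller gap, with 11.1 (S), 12.9 (RV), 26.8 (RVC) and 8.82 (RVT) CPM. PLK1, the Polo-like kinase that acts from mitotic entry to cytokinesis, had 30.2 (S), 39.9 (RV), 16.4 (RVC) and 3.74 (RVT) CPM. PLK1 was lower than S in both combinations, 1.85-fold in RVC (-1.03 to -0.74 on the log2 scale) and 8.08-fold in RVT (-3.33 to -2.72). The checkpoint kinases BUB1, with 2.10 (S), 2.45 (RV), 9.28 (RVC) and 2.05 (RVT) CPM, and TTK, with 2.15 (S), 3.23 (RV), 7.18 (RVC) and 1.73 (RVT) CPM, were low in all libraries and highest in RVC, and the centrosome kinase NEK2 had 5.71 (S), 7.82 (RV), 10.9 (RVC) and 6.42 (RVT) CPM.

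Of the 3 ubiquitin genes, CDC20 had the lowest ratio of all 53 members in both RVC over S and RVT over S. This gene, the activator of the anaphase-promoting complex, had 69.2 CPM (S, 67.1 to 71.4), 116 (RV, 113 to 119), 35.4 (RVC, 33.4 to 37.5) and 4.29 (RVT, 3.52 to 5.18). Its RVT level rested on 109 UMIs and was 16.1-fold below S. UBE2C, the ubiquitin-conjugating enzyme of the same complex, had 140.2 (S), 209 (RV), 108 (RVC) and 25.2 (RVT) CPM, 5.57-fold below S in RVT. Both genes had their highest CPM in RV and did not share the higher levels of most members in RVC, with log2 ratios in RVC over S of -0.97 (-1.06 to -0.87) and -0.38 (-0.44 to -0.32). G2E3, a ubiquitin ligase of G2 phase, had 8.91 (S), 8.41 (RV), 20.95 (RVC) and 14.6 (RVT) CPM.

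At centromeres and kinetochores 5 of 6 genes were at least 2-fold above S in RVC, against 22.4% of background genes. For this role and those that follow, nothing particular to a role is read from counts over so few genes. CENPF, a large protein of the outer kinetochore, had 89.5 (S), 96.5 (RV), 335 (RVC) and 78.996 (RVT) CPM. The kinetochore motor CENPE had 7.39 (S), 9.33 (RV), 24.3 (RVC) and 9.09 (RVT) CPM, the CENP-A chaperone HJURP 10.3 (S), 10.5 (RV), 33.1 (RVC) and 16.7 (RVT) CPM and NDC80, a microtubule-binding subunit, 6.99 (S), 10.5 (RV), 15.9 (RVC) and 6.77 (RVT) CPM. NUF2, the direct partner of NDC80, was lower in RVT, with 13.2 (S), 21.995 (RV), 28.5 (RVC) and 4.72 (RVT) CPM. CENPA, the centromeric histone, was the exception in RVC: its 15.8 (S), 17.8 (RV), 15.1 (RVC) and 6.53 (RVT) CPM gave a log2 ratio in RVC over S of -0.07 with an interval that includes 0 (-0.23 to 0.09).

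The 15 spindle motors and microtubule-binding proteins summed to 314 (S), 392 (RV), 761 (RVC) and 265 (RVT) CPM. Of these, 8 were at least 2-fold above S in RVC, against 22.4% of background genes. GTSE1, a microtubule plus-end protein, had 12.5 (S), 13.2 (RV), 75.8 (RVC) and 12.3 (RVT) CPM, 6.06-fold above S in RVC. DLGAP5 (HURP) had 4.52 (S), 6.0005 (RV), 24.998 (RVC) and 4.96 (RVT) CPM and NUSAP1 27.7 (S), 40.1 (RV), 145 (RVC) and 44.7 (RVT) CPM. KIF2C, KIF11, GAS2L3, ASPM and HMMR were also at least 2-fold above S in RVC, with log2 ratios of 1.84, 1.72, 1.67, 1.62 and 1.55. CKAP5, TPX2, CKAP2, TUBB4B, TACC3 and CKAP2L were above S by less, with log2 ratios of 0.95, 0.88, 0.75, 0.74, 0.71 and 0.63, and PSRC1 was below S (-0.56). In RVT over S this role ranged from CKAP2L (-2.02, -2.40 to -1.65) to GAS2L3 (1.02, 0.62 to 1.41). CKAP5, the microtubule polymerase, had nearly equal levels in both combinations, with 18.7 (S), 17.1 (RV), 36.1 (RVC) and 34.3 (RVT) CPM.

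All 4 cytokinesis genes were at least 2-fold above S in RVC, against 22.4% of background genes, and above S in RVT, against 55.5%. In RVT KIF20B and KIF23 changed direction in some settings. ANLN (anillin), which organises the cleavage furrow, had 5.71 (S), 10.6 (RV), 27.2 (RVC) and 9.84 (RVT) CPM and the highest ratio in RV over S among the 44 members over 10 CPM. ECT2, the exchange factor that activates RhoA at the furrow, had 4.60 (S), 6.02 (RV), 17.2 (RVC) and 9.29 (RVT) CPM. The midzone motors KIF23 and KIF20B had 7.78 (S), 9.40 (RV), 25.4 (RVC) and 12.04 (RVT) CPM and 15.6 (S), 21.5 (RV), 77.03 (RVC) and 20.9 (RVT) CPM.

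Of the 8 chromosome and chromatin genes, 7 were at least 2-fold above S in RVC, against 22.4% of background genes. NCAPD2, a subunit of condensin I, had 17.6 CPM (S, 16.5 to 18.7), 17.5 (RV, 16.4 to 18.7), 154 (RVC, 149.7 to 158) and 25.03 (RVT, 23.1 to 27.1). Its RVC level was 8.76-fold that in S, the highest ratio of the 53. SMC4, the core condensin subunit, had 75.1 (S), 83.2 (RV), 147 (RVC) and 30.6 (RVT) CPM, so that the 2 condensin members differed in both combinations. TOP2A had 101 (S), 75.4 (RV), 214 (RVC) and 69.7 (RVT) CPM and was the 1 member of this role with a lower level in each of RV and RVT than in S under all 9 settings.

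MKI67, the Ki-67 antigen that coats mitotic chromosomes, had 28.6 (S), 34.4 (RV), 70.3 (RVC) and 25.2 (RVT) CPM, and HMGB2, a DNA-bending protein, had 83.3 (S), 123 (RV), 201 (RVC) and 83.2 (RVT) CPM. In RVT over S their log2 ratios were -0.18 and -0.001, with directions that differed between settings. CBX5 (HP1 alpha), a heterochromatin protein that is not limited to G2/M, had 44.1 (S), 47.8 (RV), 114 (RVC) and 103 (RVT) CPM and was 2.34-fold above S in RVT, the highest ratio there. ANP32E, a histone chaperone, had 55.5 (S), 67.3 (RV), 227 (RVC) and 65.5 (RVT) CPM, and CDCA2, which targets a phosphatase to chromatin, had 3.90 (S), 6.23 (RV), 15.1 (RVC) and 4.72 (RVT) CPM. In the nuclear envelope LBR had 9.82 (S), 10.5 (RV), 16.6 (RVC) and 19.8 (RVT) CPM and TMPO 22.1 (S), 25.4 (RV), 36.4 (RVC) and 13.4 (RVT) CPM, opposite in direction in RVT over S. TUBB4B, CKS1B and HMGB2 belong to families with close relatives or processed pseudogenes, and how reads shared among them were counted is not given in the sources used here.

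The 4 sums differed in how they were spread over cells. Each cell was thinned to 1500 UMIs so that depth was equal, which left out 403 RVC and 848 RVT cells with fewer. A thinned S cell held a median of 1 UMI of the 53 genes, an RV cell 2, an RVC cell 6 and an RVT cell 1. Cells with none of these UMIs were 33.03% (S), 25.6% (RV), 3.31% (RVC, 2.91 to 3.75, exact binomial interval) and 35.8% (RVT). At least 5 of these UMIs were present in 17.5% (S), 24.4% (RV), 64.6% (RVC) and 6.23% (RVT) of cells. At least 10 were present in 5.08% (S, 4.56 to 5.65), 6.89% (RV, 6.14 to 7.71), 25.7% (RVC, 24.7 to 26.7) and 4.69% (RVT, 4.22 to 5.19) of cells. At 20 or more the shares were 0.410% (S, 0.268 to 0.601), 0.599% (RV, 0.388 to 0.882), 1.65% (RVC, 1.37 to 1.97) and 1.95% (RVT, 1.65 to 2.29) of cells. The RVC share was thus above those of S and RV at each of these limits. RVT had the largest share of cells in which none of the 1500 UMIs was from these genes, which at this depth does not show that the genes were silent. At 20 or more the RVT share lay above those of S and RV, while its interval overlapped that of RVC.

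**Figure D3:**
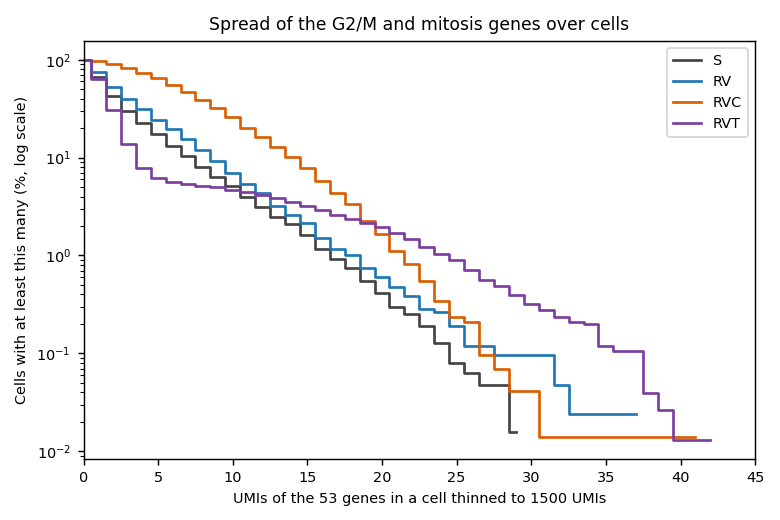
Share of cells (percent, log axis) holding at least a given number of UMIs of the 53 genes after thinning to 1500 UMIs per cell, 1 step line per library. The RVC line lies above the others up to about 19 UMIs, while the RVT line falls to 6.23% at 5 UMIs and then runs nearly flat to 4.69% at 10 UMIs.

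Near the limit of 10 UMIs the libraries also differed: 15.9% of RVC cells but 0.843% of RVT cells held 9 to 11. The part of free RNA in the broad RVC distribution was not tested, since no cells in the culture are known to lack these genes. Barcodes left out for having fewer than 500 genes carried 5271 CPM (5100 to 5447) of the 53 genes in RVC, above the 4711 CPM of its retained cells, and 1344 CPM in RVT. Within RVC the sum varied little with depth, from 4351 to 5029 CPM over quartiles of UMIs per cell. In S it was 1097 CPM in the shallowest and 2386 CPM in the deepest quartile, in RV 1518 and 2503 CPM, and in RVT 1056 and 2027 CPM.

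Shares of cells with a UMI of a single member differed widely between members and with depth. MKI67 had a UMI in 3.73 (S), 4.41 (RV), 9.48 (RVC) and 2.26 (RVT) percent of thinned cells, and in 16.8 (S), 25.5 (RV), 23.2 (RVC) and 3.71 (RVT) percent of unthinned cells. CDC20 had one in 8.23 (S), 13.1 (RV), 5.09 (RVC) and 0.448 (RVT) percent of thinned cells and 28.7 (S), 49.7 (RV), 13.2 (RVC) and 1.13 (RVT) percent of unthinned cells. CKS1B had one in 25.4 (S), 33.1 (RV), 65.3 (RVC) and 22.2 (RVT) percent of thinned cells and 67.9 (S), 80.4 (RV), 83.7 (RVC) and 35.4 (RVT) percent of unthinned cells. The order of libraries by thinned share matched the order by CPM for all 3 genes, and a gene-lacking cell type for comparison was not present.

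To ask whether members were high in the same cells without counting a gene in cells that it had itself selected, the list was divided by position. Cells with at least 5 UMIs of the 27 odd-position genes were called high and the 26 even-position genes were measured in them, and then the reverse. High cells made up 8.004% (S), 11.3% (RV), 42.7% (RVC) and 5.23% (RVT) of cells by the odd-position genes, and 5.16%, 7.25%, 16.3% and 3.63% by the even-position genes. Cells near the limit, with 4 to 6 selecting UMIs, were 9.03% (S), 12.0% (RV), 30.4% (RVC) and 1.57% (RVT) of cells by the odd-position genes. The measured genes were 5.78-fold (5.48 to 6.08) higher in high than in other cells in S, 4.23-fold (4.01 to 4.47) in RV, 1.91-fold (1.85 to 1.96) in RVC and 14.4-fold (13.6 to 15.2) in RVT with odd-position selection, and 5.10-fold, 3.76-fold, 1.87-fold and 16.4-fold with even-position selection.

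The contrast between cells was thus widest in RVT and narrowest in RVC. In RVT it came from both sides, with 4173 CPM of the even-position genes in high cells and 290.0 CPM in the others, against 2851 and 494 CPM in S. In RVC the high cells had 2316 CPM and the others 1215 CPM. Requiring at least 10 selecting UMIs gave 7.52-fold (S), 5.45-fold (RV), 1.99-fold (RVC) and 13.4-fold (RVT) with odd-position selection. Taking the top 5 percent of cells in each library, a choice made after seeing the data so that equal shares of cells were compared, gave 5.91-fold, 4.46-fold, 2.14-fold and 14.4-fold. A wide contrast in RVT was not limited to the G2/M and mitosis genes: between cells with at least 10 UMIs of the 53 genes and the other cells, 3 (S), 3 (RV), 1 (RVC) and 35 (RVT) of the 43 genes of the Seurat G1/S list, none of them a member, were at least 2-fold higher. Of 6466 background genes outside the list, 4.13% (S), 3.79% (RV), 0.665% (RVC) and 8.07% (RVT) were.

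The median member followed this order. Its fold between high and other cells, over the 53 members, was 6.30 (S), 4.37 (RV), 2.10 (RVC) and 36.6 (RVT), and at least 10-fold was reached by 7 members in S, 4 in RV, none in RVC and 41 in RVT. Of the 6466 background genes outside the list, 0.0155% (S), 0.00% (RV), 0.00% (RVC) and 0.866% (RVT) were at least 10-fold higher in the same cells. In RVT MKI67 was 158-fold (102 to 254) higher in high cells, with 23 UMIs in all other cells together, and TOP2A was 48.2-fold (41.03 to 56.6) higher. The corresponding folds in S were 4.93 and 8.29. The lowest folds were those of CBX5 in S (0.963, 0.649 to 1.38), LBR in RV (1.35), NCAPD2 in RVC (1.08, 0.975 to 1.19) and G2E3 in RVT (1.93). NCAPD2, the member with the highest RVC over S ratio, was therefore at almost the same level in RVC cells with many and with few transcripts of the other members, 152 and 141 CPM, while in S it stood at 38.1 and 13.6 CPM.

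Levels in high cells were then compared between libraries, although 1 limit on selecting UMIs takes in unlike parts of each library's distribution. Between RVT and S, 38 members were higher in RVT high cells and 15 lower, with a median log2 ratio of 1.17. Of 6466 background genes that are no members, 56.9% were above S in the same cells, with a median of 0.29. In the top 5 percent of cells of each library the member counts were 38 and 15, with a median of 1.004. No background share was computed for the top 5 percent, so these counts are not read against all genes. TOP2A had 493 (S), 264 (RV), 382 (RVC) and 1048 (RVT) CPM in high cells. MKI67 had 98.6 (S), 81.9 (RV), 98.5 (RVC) and 336 (RVT) CPM and CKS2 299.7 (S), 365 (RV), 817 (RVC) and 1133 (RVT) CPM. These genes were thus 2.12-fold, 3.41-fold and 3.78-fold above S in the RVT high cells, whereas in the whole library the RVT level was 1.44-fold below S for TOP2A and 1.14-fold below S for MKI67.

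Intervals lay wholly above 0 for 33 members in the RVT high cells against S, and wholly below 0 for 8, namely UBE2C, BIRC5, TACC3, SMC4, AURKB, TUBB4B, CDC20 and PLK1. The share of background genes with such intervals in these cells was not computed, so the 33 and 8 are not read against all genes. CDC20 had 279 (S), 304 (RV), 49.8 (RVC) and 52.1 (RVT) CPM in high cells, on 212, 215, 230 and 31 UMIs. PLK1 had 184 (S), 186 (RV), 26.2 (RVC) and 50.4 (RVT) CPM, AURKB 171 (S), 167 (RV), 113 (RVC) and 53.1 (RVT) CPM and UBE2C 640.4 (S), 698 (RV), 148 (RVC) and 296 (RVT) CPM. The log2 ratios in high cells of RVT over S were -2.42 (-3.01 to -1.87) for CDC20, -1.87 (-2.49 to -1.29) for PLK1, -1.69 (-2.44 to -0.997) for AURKB and -1.12 (-1.37 to -0.86) for UBE2C. Lower levels of these genes were therefore measured within the high cells and not in the whole library alone.

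In RVC high cells the same genes were lower, with CDC20 at -2.49 (-2.76 to -2.21), PLK1 at -2.81 (-3.18 to -2.45) and UBE2C at -2.11 (-2.28 to -1.94) on the log2 scale against S. The median member was at 0.01, with 27 above (14 with intervals wholly above 0) and 26 below (17 with intervals wholly below 0), while 53.5% of the 6466 background genes were above S with a median of 0.14. This split depended on the limit, which takes in a larger share of RVC than of S cells: in the top 5 percent of cells of each library 35 members were above S and 18 below, with a median of 0.33. In the other cells of RVC the median member was at 1.51 against S, and at 1.67 outside the top 5 percent, so that with both selections the median difference between RVC and S was larger in the other cells than in the high cells. In the other cells of RVT the median member was at -1.14. No background median was computed for the other cells of any library, so these medians are not read against all genes. In RV high cells the median was at 0.06, and 1 member had an interval wholly above 0 and 4 (TOP2A, CENPF, SMC4 and CDCA3) wholly below. In the top 5 percent of cells 31 members were above S in RV and 22 below, with a median of 0.19. Background shares of intervals wholly above or below 0 were not computed for RVC or RV high cells, nor was a background median for RV high cells. For the top 5 percent of cells no background share or median was computed in any comparison, so those member counts and medians are not read against all genes.

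**Figure D4:**
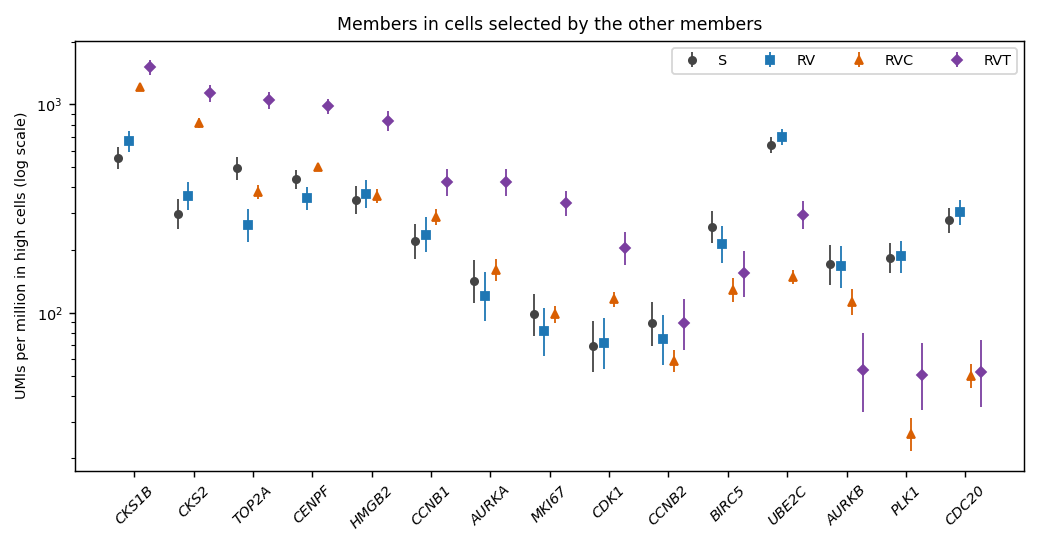
Level of 15 members in high cells (at least 5 of 1500 UMIs from the members at the other positions of the list), in CPM on a log axis, with 95% counting intervals, for S, RV, RVC and RVT. RVT is highest for genes such as TOP2A (1048) and MKI67 (336), while CDC20, PLK1 and UBE2C are lower in both RVC and RVT than in S and RV.

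Base composition moved with part of this pattern. BIRC5, MKI67, TACC3, AURKB, TUBB4B, CDC20 and PLK1 have a GC content above 50% over the 500 bases at the 3′ end of their longest annotated transcript, near where the reads fall. Their median log2 ratio was 0.71 in RVC over S, against 1.67 for the other 46 members, and -2.37 in RVT over S, against 0.13. Spearman's rho between GC content and log2 ratio over the 53 members, which share the libraries and their depth, was -0.07 in RV over S, -0.34 in RVC over S, -0.36 in RVT over S and -0.26 in RVT over RVC. Over all background genes it was 0.01, -0.35, -0.41 and -0.17, so a relation of similar size was present across genes.

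Centring the log2 ratios within 10 bins of GC content left CDC20 at -0.56 in RVC over S and -3.38 in RVT over S, PLK1 at -0.47 and -2.38, and UBE2C at -0.52 and -2.70. AURKB came to 1.16 and -2.51 and BIRC5 to 0.90 and -1.74. In RVT over S the uncentred log2 ratios of the 46 members at 50% GC or less ranged from -2.48 to 1.23, and those of the 7 above 50% from -4.01 to -0.18. The part of base composition in the library differences was otherwise not tested.

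**Figure D5:**
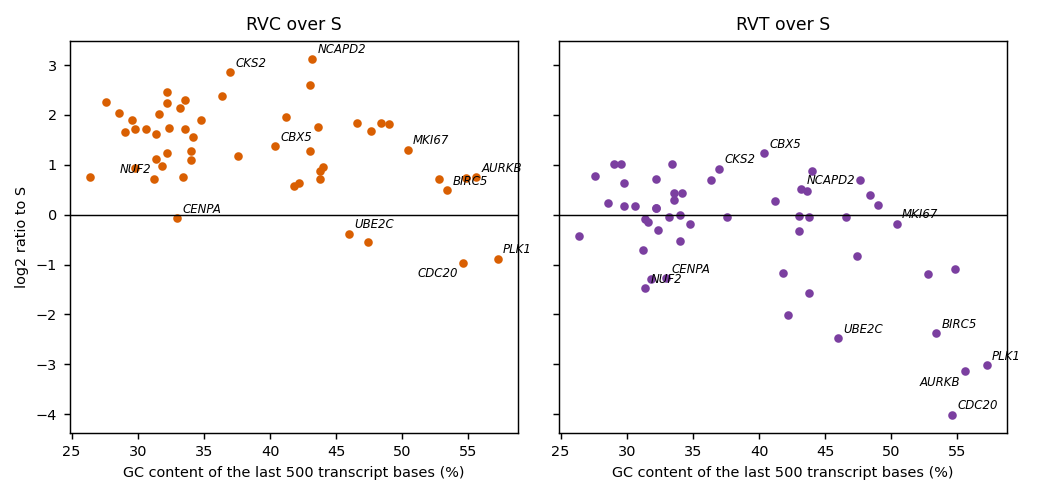
Log2 ratio to S of each of the 53 members in RVC (left) and RVT (right) against GC content over the final 500 transcript bases, in percent, 1 point per gene, with selected genes named. CDC20, PLK1 and AURKB, at over 50% GC, lie at the lower right in RVT, where the members at 50% GC or less range from -2.48 to 1.23.

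Other genes of mitosis, from lists of the same machines, gave a mixed picture. The anaphase-promoting complex, securin and separase (16 genes) summed to 1047 (S), 1373 (RV), 1111 (RVC) and 581 (RVT) CPM. UBE2S, the chain-elongating ubiquitin enzyme of that complex, held the lowest ratio of the list in both combinations, with 414 (S), 559 (RV), 90.3 (RVC) and 33.4 (RVT) CPM, and CDC26, a small subunit, the highest, with 50.97 (S), 57.5 (RV), 172 (RVC) and 131 (RVT) CPM. UBE2S had a log2 ratio of -2.20 (-2.25 to -2.14) in RVC over S and -3.63 (-3.73 to -3.53) in RVT over S. At least 2-fold above S in RVC were 4 of the 16 genes and at least 2-fold below 3. In RVT the counts were 2 and 6. For these and the lists that follow, the same background shares apply, 22.4% above and 23.3% below in RVC and 28.4% above and 24.3% below in RVT, and nothing particular to a list is read from counts over so few genes.

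The spindle checkpoint and outer kinetochore list (12 genes) summed to 256 (S), 293 (RV), 468 (RVC) and 164 (RVT) CPM, with 6 genes at least 2-fold above S and 2 at least 2-fold below in RVC. BUB1B (BubR1) had the highest ratio there, with 4.65 (S), 5.37 (RV), 28.3 (RVC) and 4.37 (RVT) CPM, and MAD1L1 the lowest in both combinations, with 9.56 (S), 13.1 (RV), 1.25 (RVC) and 1.06 (RVT) CPM. In RVT DSN1 was highest at 0.24 (0.02 to 0.45), and 0 genes were at least 2-fold above S and 4 at least 2-fold below. Condensin and cohesin (13 genes) summed to 271 (S), 303 (RV), 593 (RVC) and 293 (RVT) CPM. NCAPH, of condensin I like NCAPD2, had the highest ratio in RVC at 2.197 (2.002 to 2.40), with 7 genes at least 2-fold above S and 1 at least 2-fold below. NCAPH2, of condensin II, had the lowest in both combinations, with 11.8 (S), 14.2 (RV), 2.83 (RVC) and 1.18 (RVT) CPM, and RAD21, the cleavable cohesin subunit, the highest in RVT, with 33.3 (S), 38.3 (RV), 84.6 (RVC) and 79.98 (RVT) CPM.

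Other mitotic motors and midzone proteins (15 genes) summed to 182 (S), 211 (RV), 453 (RVC) and 108 (RVT) CPM, and in RVC 10 were at least 2-fold above S and 0 at least 2-fold below. KIF4A was highest in RVC at 2.29 (2.10 to 2.48) and KIF22 lowest at -0.59 (-0.71 to -0.47). In RVT KIF18A was highest at 0.80 (0.46 to 1.14) and PBK lowest at -1.71 (-1.88 to -1.53), with 7 at least 2-fold below. Cyclin A with the kinases and phosphatases that control CDK1 (7 genes) summed to 86.1 (S), 105 (RV), 92.999 (RVC) and 92.3 (RVT) CPM. WEE1, the kinase that inhibits CDK1, had 5.34 (S), 4.15 (RV), 14.6 (RVC) and 23.6 (RVT) CPM, the highest ratio of its list in RVT, whereas PKMYT1, the other CDK1 inhibitory kinase, was lowest in both combinations, with 20.8 (S), 25.3 (RV), 7.33 (RVC) and 0.433 (RVT) CPM on 1219 UMIs in S and 11 in RVT. CDC25A, a phosphatase that activates CDKs, was highest in RVC at 2.001 (1.73 to 2.28).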

How the data were processed

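Single-cell RNA-seq of 4 A375 cultures (S, RV, RVC and RVT, 1 library each) was analysed. The authors deposited 1 table of raw counts per library, whole UMI counts per gene and cell barcode, made with the 10x v2 3′ kit, bcl2fastq 2.20.0.422 and Cell Ranger on GRCh38. Cell Ranger's version, the annotation and the barcode filter are not given in the sources used here, and normalised values were not used here. The tables of S and RV list 33694 genes and those of RVC and RVT 33538, and symbols and positions were taken from GENCODE 29. They hold 6695 (S), 4328 (RV), 9266 (RVC) and 10427 (RVT) barcodes. For S and RV the study's methods count fewer cells, and its filter for dead cells and doublets has no stated thresholds, so the deposited barcodes were filtered anew.

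Cells with at least 500 genes and at most 20% mitochondrial UMIs were kept. The doublet caller scrublet (scanpy 1.11.5) made at most 5 calls per library and was taken not to have worked, so the barcodes with the highest scores were removed at 0.8% per 1000 barcodes. This left 6334, 4177, 7620 and 8443 cells. Pairs of libraries shared 36 to 102 barcodes, at most 1.34% of a library. UMIs were summed per gene over cells and given per 1000000 UMIs of the library (CPM). Intervals were exact (Poisson for levels, binomial for shares and for ratios of UMIs) at 95%, and cover counting error only. Background genes were the 6510 listed in all tables with a mean of at least 10 CPM, and members were called at 2-fold and 4-fold without a pseudocount. For shares of cells, UMIs were drawn without replacement to 1500 per cell with a fixed seed. The ratios of single genes, their intervals and the selection of high cells by other members were tested on simulated data. The simulated cells held a small high group apart from the rest, unlike the broad RVC distribution.

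No test was made between conditions. CDK1, CCNB1, CCNB2, TOP2A, MKI67, AURKA, AURKB, PLK1, CDC20, UBE2C, BIRC5, CENPF, HMGB2, CKS1B and CKS2 were named throughout, together with the 5 highest and 5 lowest log2 ratios among members over 10 CPM in each comparison and the highest and lowest ratio of each further list in RVC and RVT over S. Other members are given by role, so that each is accounted for. A gene that this rule takes in is not reported here. Members, lists and this rule were chosen with earlier results of these data known. The alternatives were other cell filters, no doublet removal, edgeR 4.0.16 TMM scaling, library sizes without ribosomal protein and mitochondrial genes, means over cells, centring by GC content, a pseudocount of 1 CPM, other CPM minimums, other limits on UMIs per cell and a second draw. Python 3.11.15, numpy 2.4.6, pandas 2.3.3, scipy 1.17.1 and R 4.3.3 were used.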

Additional observations from a re-analysis of the deposited data

How the results depend on the processing

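No paired analysis was possible because each condition was 1 library, and no replicate could be left out. The summed log2 ratio of RV over S (0.36) was 0.32 with TMM scaling, 0.29 without ribosomal protein and mitochondrial genes, 0.41 as a mean over cells, 0.34 after GC centring and 0.34 without CKS1B. That of RVC over S (1.44) was 1.23, 1.25, 1.55, 1.17 and 1.37 in the same order, and 1.47 with at least 1000 genes per cell. That of RVT over RVC (-1.71) was -2.02, -1.60, -1.88, -1.92 and -1.68, and -1.49 with at least 1000 genes, -1.75 with all barcodes and -1.75 without doublet removal. That of RVT over S (-0.27) was -0.79, -0.35, -0.33, -0.65 and -0.31, and -0.015 with at least 1000 genes, -0.31 with all barcodes and -0.31 without doublet removal. No sum changed direction. Of the 53 members, the 4 at least 2-fold above S in RVT became 8 with at least 1000 genes, 2 without doublet removal, 0 with TMM scaling or GC centring and 1 without ribosomal protein and mitochondrial genes or with a pseudocount. At least 2-fold below S in RVC were 2 members (CDC20 and PLK1) in place of 0 with TMM scaling or without ribosomal protein and mitochondrial genes. The share of cells past a limit depends on the limit, and at 5 and 20 UMIs it was 17.5% and 0.410% in S, 24.4% and 0.599% in RV, 64.6% and 1.65% in RVC and 6.23% and 1.95% in RVT. With at least 1000 genes per cell the share at 10 UMIs was 26.8% in RVC and 6.90% in RVT. A second draw and no doublet removal kept each of the 4 shares within its interval. Lower minimums of CPM change the background and not the members, and background shares were not computed for the other settings. The cause of these shifts was not tested. Depth limits RVT most, where 3 UMIs are 0.118 CPM and PLK1, CKAP2L, BUB1, TTK and CDC25C have under 100 UMIs.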

Other observations

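Regulators of the late cell cycle genes were followed in a list of 12 transcription factors and DREAM or MuvB subunits. They summed to 145 (S), 133 (RV), 177 (RVC) and 77.9 (RVT) CPM, with 2 at least 2-fold above S and 2 at least 2-fold below in RVC, and 2 and 5 in RVT. Of the 6510 background genes 22.4% were above and 23.3% below by that much in RVC, and 28.4% and 24.3% in RVT, and nothing particular to the list is read from these counts. FOXM1, an activator of G2/M genes, had 19.6 (S), 18.9 (RV), 74.4 (RVC) and 10.9 (RVT) CPM and the highest ratio of the list in RVC, at 1.93 (1.82 to 2.03) on the log2 scale. MYBL2 (B-MYB), which activates these genes with the MuvB core, had 12.7 (S), 8.87 (RV), 19.6 (RVC) and 1.30 (RVT) CPM and the lowest ratio in RVT, at -3.29 (-3.84 to -2.79). RBL2 (p130), the pocket protein of the repressing DREAM complex, had 6.17 (S), 6.15 (RV), 10.7 (RVC) and 23.6 (RVT) CPM and the highest ratio in RVT, while E2F4, its E2F partner, had 81.8 (S), 71.6 (RV), 36.4 (RVC) and 26.6 (RVT) CPM and the lowest in RVC.

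The G1/S list of 43 replication and S phase genes summed to 832 (S), 1059 (RV), 1158 (RVC) and 395 (RVT) CPM, so RVC was 1.39-fold above S where the 53 G2/M and mitosis genes were 2.72-fold above. In RVC 10 of the 43 were at least 2-fold above S and 4 at least 2-fold below, and in RVT 0 and 22, to be read against the same background shares. CLSPN (claspin) was highest in RVC at 1.87 (1.78 to 1.96) and UBR7 in RVT at 0.60 (0.38 to 0.83). Of JPT1, RANGAP1 and CTCF, which belong to the Seurat G2/M list but not to the 53 genes, the sum was 293 (S), 378 (RV), 204 (RVC) and 84.3 (RVT) CPM. JPT1 was lowest in both combinations, with 262 (S), 344 (RV), 158 (RVC) and 47.5 (RVT) CPM, and CTCF, a chromatin insulator protein, highest, with 10.3 (S), 9.06 (RV), 27.9 (RVC) and 30.2 (RVT) CPM.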
